A study of Drosophila melanogaster with 16 samples.

Results

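Genes of the nucleolus and of ribosome biogenesis were followed in RNA of whole adult testes of Drosophila melanogaster, on 16 single-colour Affymetrix arrays summarised by the authors with MAS5. The genes were given by 10 names, mod, Uhg1, Myc, Nop60B, Fib, Nop56, Nop5, Tif-IA, wcd and Nnp-1, and a probe set was taken when the platform annotation gave exactly that symbol. This found 10 probe sets for 8 genes, of 13966 probe sets and 10826 named genes in all. Myc and Nop5 had no probe set under that rule and were not analysed here. mod and Uhg1 were put on the list because they had been among the largest rises in these same arrays, so their values are given as a description, without a test. The other 6 genes were listed for their function, with earlier results of these data known.

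The groups were 6 samples of Os+bgcn- testes, 5 of bgcn- testes and 5 of wild-type testes, and both mutant groups lack bgcn function. bgcn ends the dividing spermatogonial stage together with bam, and germ cells without it keep dividing and do not become spermatocytes. Os stands for outstretched, an older name of upd1, the secreted JAK-STAT ligand of the hub; the labels do not tell how it was supplied, nor the alleles, the strain background or the age of the flies. Each sample was a pool, of 150 testes in Os+bgcn, 750 in bgcn and 150 in wild type, so pool size and genotype cannot be told apart for bgcn. For wild type the labelled extraction protocol speaks of bgcn testes, but the summed signal of 14 spermatid marker genes was 156642 to 183514 on the wild-type arrays, against 507 to 930 in Os+bgcn and 374 to 1292 in bgcn. The labels call the samples biological replicates.

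The nucleolus is where RNA polymerase I transcribes ribosomal RNA and where the transcript is modified, cut and assembled with proteins into both ribosomal subunits. Small nucleolar RNAs guide the modification, box C/D particles with the methyltransferase fibrillarin and box H/ACA particles with a pseudouridine synthase. The transcription factor Myc raises many of these genes in growing cells, and germline stem cells of the fly ovary have larger nucleoli than their daughters. No sequence of these genes was used here.

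upd1, which the Os genotype names, had a signal of 396 ± 128 in Os+bgcn (SD, n = 6), 9.60 ± 4.31 in bgcn (n = 5) and 11.6 ± 6.28 in wild type (n = 5). The bgcn transcript had 84.8 ± 32.7, 67.7 ± 21.3 and 104 ± 34.6 in the same order of groups, and whether its probe set lies in the mutated part of the gene was not analysed here. Markers of other tissues moved between the groups as well. The summed signal of 12 accessory gland genes ran from 296 to 2046 in Os+bgcn, from 2943 to 18005 in bgcn and from 4635 to 16364 in wild type. That of 8 hemocyte genes was 1087 to 1767, 2005 to 2479 and 1336 to 1729. That of 5 muscle sheath genes was 520 to 1316, 2095 to 2906 and 453 to 740. That of 9 spermatocyte genes was 259 to 446, 170 to 350 and 788 to 898, and that of 6 hub and cyst genes, upd1 among them, 1032 to 1592, 463 to 587 and 309 to 405. The hub and cyst genes did not all move together. In the fit described below 4 were higher and 2 lower in Os+bgcn than in bgcn (11.6% and 8.91% of all probe sets). In bgcn against wild type 2 were higher and 1 lower (47.2% and 22.6%), with a median log2 difference of -0.15. Among germline markers, 6 early germline genes summed to 3594 to 4093 in Os+bgcn, 1927 to 2908 in bgcn and 128 to 178 in wild type. In whole testes a change in the share of a cell type and a change in RNA per cell cannot be told apart, and the part of these marker shifts in the values below was not tested.

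In both mutants 7 of the 8 genes had higher signal than in wild type on the authors' scale, and the exception was Uhg1, which was high in Os+bgcn alone. This count is a description, since mod was listed for its rise and Nop60B passed the filter given below only through the mutants. Of all probe sets 47.2% were called higher in bgcn than in wild type and 47.3% in Os+bgcn. Between Os+bgcn and bgcn the differences of these 7 genes were small, from -0.11 to 0.75 on the log2 scale, with Fib and Nop56 past the test. Signals of different probe sets are not comparable with each other, so levels are compared only within a gene. Differences are on the scale of log2(signal + 18.8), where 18.8 is the pooled 25th percentile of all values, and they understate changes of dim transcripts. Tests are limma contrasts fitted to all 10422 probe sets that passed a filter on low signal, with Benjamini-Hochberg adjusted p-values and a threshold of 0.05. All 10 probe sets passed the filter, some of them only through the groups in which they are high.

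**Figure D1:**
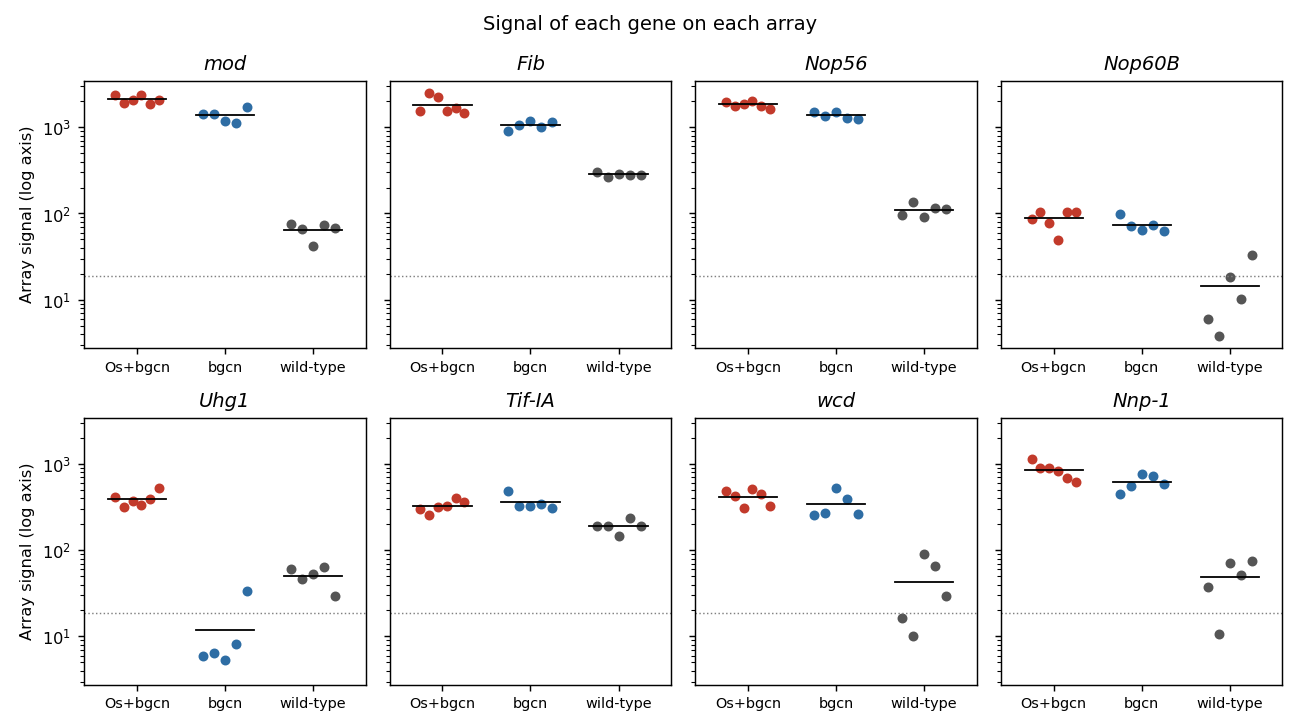
Signal on each array (vertical log axis, array units) of 8 genes, each on its brightest probe set, in Os+bgcn (6 arrays), bgcn (5) and wild type (5). Points are arrays, black bars group means and the dotted line the pseudocount of 18.8. 7 genes are lowest in wild type, while Uhg1 lies under the dotted line on 4 of 5 bgcn arrays.

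The nucleolar protein gene mod (modulo, on chromosome arm 3R) encodes a DNA- and RNA-binding protein often set beside vertebrate nucleolin. Its signal in Os+bgcn had a lowest value of 1870, a median of 2069 and a highest value of 2386. In bgcn it was 1415, 1441, 1177, 1128 and 1724, and in wild type 74.6, 66.0, 41.9, 74.4 and 67.0. The 3 groups did not overlap, with both mutants far above wild type and Os+bgcn above bgcn. The group means were 2111 ± 224 in Os+bgcn, 1377 ± 239 in bgcn and 64.8 ± 13.4 in wild type. On the log2 scale mod was higher by 4.68 ± 0.14 (SE) in Os+bgcn than in wild type and by 4.06 ± 0.14 in bgcn than in wild type, which placed it 12th and 16th from the top among the 10422 probe sets. Between Os+bgcn and bgcn it differed by 0.62 ± 0.14, at place 1082. These are the values that put mod on the list.

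Fib and Nop56 are core proteins of the box C/D particles. Fib (fibrillarin, 2R) is the methyltransferase itself. Its signal in Os+bgcn had a lowest value of 1445, a median of 1615 and a highest value of 2484. It was 910, 1049, 1168, 1019 and 1141 in bgcn, and 303, 265, 289, 280 and 282 in wild type. The groups formed 3 separate levels, with a small spread in wild type (14.0, SD) and the largest in Os+bgcn (425). Fib rose by 1.83 ± 0.14 in bgcn over wild type (adjusted p = 5.6e-10), by 2.57 ± 0.14 in Os+bgcn over wild type (adjusted p = 1.1e-12) and by 0.75 ± 0.14 in Os+bgcn over bgcn (adjusted p = 0.00058).

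Nop56 (3R), a scaffold protein of the same particle, had a signal of 1632 at the lowest, 1807 at the median and 2026 at the highest in Os+bgcn. In bgcn the values were 1487, 1338, 1497, 1291 and 1246, and in wild type 94.8, 134.5, 92.2, 115 and 113. Again no array of one group reached into another. The rise was 3.44 ± 0.12 in bgcn over wild type (adjusted p = 1.4e-15) and 3.86 ± 0.11 in Os+bgcn over wild type (adjusted p = 1.1e-16). Os+bgcn exceeded bgcn by 0.42 ± 0.11 (adjusted p = 0.011), a call that ended with arrays centred on ribosomal protein genes (0.69 ± 0.27, adjusted p = 0.091; the other alternatives gave 0.00084 to 0.030). Of the 10422 probe sets, 11.6% were called higher in Os+bgcn than in bgcn, so that background stands beside the 2 of 6 tested genes called here.

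Nop60B (2R) is the pseudouridine synthase of the box H/ACA particles, the fly counterpart of dyskerin. Its signal lay near the array medians in the mutants, with a lowest signal of 49.8, a median of 95.25 and a highest of 104.7 in Os+bgcn. In bgcn it was 98.3, 71.8, 63.9, 72.9 and 63.1, and in wild type 6.0, 3.8, 18.2, 10.3 and 33.3. Both mutants lay wholly above wild type and overlapped each other. In wild type all 5 arrays were under the filter value of 42.9, so Nop60B passed the filter only through the mutants, and its differences from wild type are given with no test. They were 1.54 ± 0.24 in bgcn and 1.72 ± 0.23 in Os+bgcn, and 2.62 and 2.84 with a pseudocount of 1. Os+bgcn and bgcn differed by 0.18 ± 0.23 (adjusted p = 0.63).

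Uhg1 (2R) is a long non-coding RNA gene that hosts small nucleolar RNAs in its introns, and it was the 1 gene of the 8 with a lower mean in bgcn than in wild type. RefSeq places 16 snoRNA genes within its span, 7 within Nop60B, 1 within Fib and none within the other 5 genes measured. The probe set reads the host transcript and not the mature snoRNAs. Its signal in Os+bgcn had a lowest value of 314, a median of 383 and a highest value of 519. In bgcn it was 5.9, 6.4, 5.3, 8.2 and 34.0, and in wild type 59.9, 46.1, 53.6, 64.1 and 29.6. Os+bgcn lay above every other array, while 4 of the 5 bgcn arrays lay below all wild-type arrays and bgcn array 5 fell among them.

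The mean signal of Uhg1 was 392 ± 72.6 in Os+bgcn, 11.96 ± 12.4 in bgcn and 50.7 ± 13.6 in wild type. The ratio of means was 32.8 for Os+bgcn over bgcn, and 60.7 without bgcn array 5, whose value sets most of the bgcn mean. The log2 difference was 3.79 ± 0.22, the 7th highest of the 10422 probe sets, and 4.01 ± 0.18 without that array. It was 2.57 ± 0.22 for Os+bgcn over wild type, and -1.22 ± 0.23 for bgcn minus wild type. All 5 bgcn values were under the filter value and 4 were under the pseudocount, so the size depends on that choice: Os+bgcn minus bgcn was 5.27 with a pseudocount of 1 and 2.42 with a pseudocount 4 times larger, and bgcn minus wild type was -2.31 and -0.53. With ribosomal protein centring Os+bgcn minus bgcn was 4.06, bgcn minus wild type -3.29 and Os+bgcn minus wild type 0.77, each with the sign it had on the authors' scale.

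Tif-IA (2L), which brings RNA polymerase I to its promoters in response to growth signals, was read by 3 probe sets. On the brightest of them the signal in Os+bgcn had a lowest value of 257, a median of 321 and a highest value of 402. It was 490, 324, 325, 343 and 307.5 in bgcn, and 189, 189, 146, 235 and 189 in wild type. Both mutants lay above wild type without overlap, and overlapped each other. The rise was 0.85 ± 0.15 in bgcn (adjusted p = 5.4e-05) and 0.74 ± 0.15 in Os+bgcn over wild type (adjusted p = 0.00015), and Os+bgcn minus bgcn was -0.11 ± 0.15 (adjusted p = 0.64).

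The other Tif-IA probe sets did not all give that call. On the dimmest the rise over wild type was 0.73 ± 0.24 in bgcn (adjusted p = 0.012) and 1.20 ± 0.23 in Os+bgcn (adjusted p = 0.00011). On the remaining one the differences were 0.47 ± 0.26 (adjusted p = 0.11) and 0.51 ± 0.25 (adjusted p = 0.071), with groups that overlapped. The rises of Tif-IA passed on 2 of its 3 probe sets, and the bgcn rise on the dimmest was lost with quantile normalization (0.51, adjusted p = 0.068) and with array median centring (0.50, adjusted p = 0.076). Os+bgcn minus bgcn had a positive value on both of these others, 0.47 and 0.04, and passed on none.

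wcd (wicked, 2R) encodes a protein of the small subunit processing machinery that is needed in stem cells of the fly germline and brain. Its signal in Os+bgcn had a lowest value of 306, a median of 432 and a highest value of 509. It was 256, 271, 523, 396.5 and 260 in bgcn, and 16.3, 10.2, 90.4, 65.9 and 29.7 in wild type. The mutants overlapped each other and lay above every wild-type array. wcd rose by 2.68 ± 0.30 in bgcn over wild type (adjusted p = 1.3e-07) and by 2.98 ± 0.29 in Os+bgcn over wild type (adjusted p = 1.2e-08). Os+bgcn minus bgcn was 0.30 ± 0.29 (adjusted p = 0.52).

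Nnp-1 (2L) is the fly relative of yeast RRP1, which acts in large subunit maturation. Its signal in Os+bgcn had a lowest value of 618.5, a median of 857 and a highest value of 1133. It was 446, 552, 763, 719 and 587.5 in bgcn, and 37.9, 10.8, 70.7, 52.2 and 74.2 in wild type. The pattern matched that of wcd, with overlap between the mutants and none with wild type. Nnp-1 rose by 3.30 ± 0.25 in bgcn over wild type (adjusted p = 3.8e-10) and by 3.74 ± 0.24 in Os+bgcn over wild type (adjusted p = 2.3e-11). Os+bgcn minus bgcn was 0.44 ± 0.24 (adjusted p = 0.22).

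**Figure D2:**
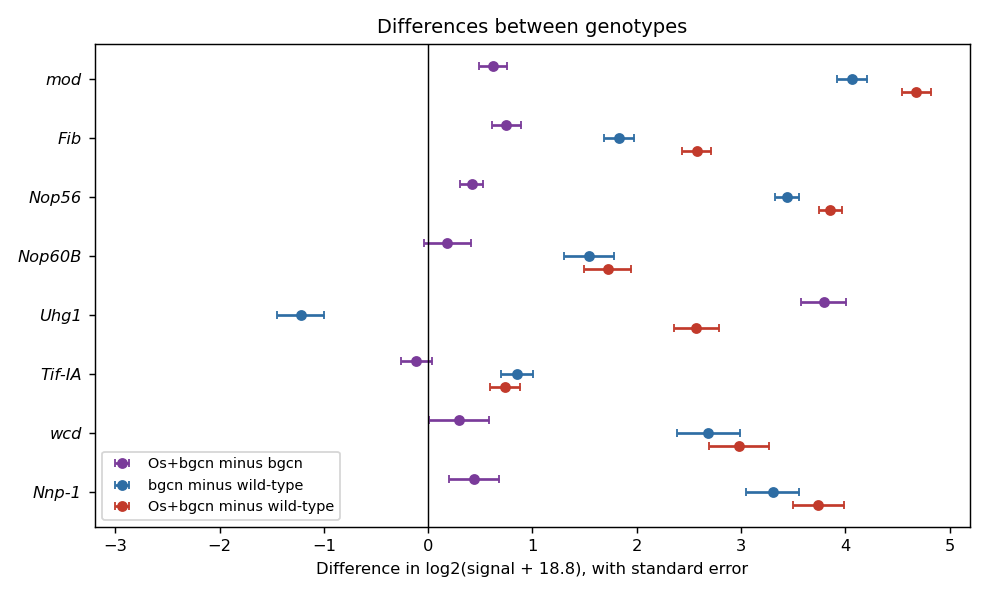
Differences in log2(signal + 18.8) between genotypes (horizontal axis) for 8 genes on their brightest probe sets, as fitted with limma. Points are Os+bgcn minus bgcn, bgcn minus wild-type and Os+bgcn minus wild-type, and bars are standard errors. Apart from Uhg1, the differences from wild type run from 0.74 to 4.68 and those between the mutants from -0.11 to 0.75. With ribosomal protein centring Tif-IA turns sign in all 3 contrasts, Nop60B in both against wild type and Fib in bgcn against wild type.

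Of the 6 members with tests, Fib, Nop56, Tif-IA, wcd and Nnp-1 were called higher in bgcn than in wild type, by 0.85 to 3.44, where 47.2% of all probe sets were called higher. The same 5 were called higher in Os+bgcn than in wild type, by 0.74 to 3.86, where 47.3% were. wcd was under the filter value on 3 of 5 wild-type arrays and Nnp-1 on 2. The median over all tested probe sets was 0.46 and 0.43 in these contrasts. Between Os+bgcn and bgcn, 2 of 6 passed, Fib and Nop56, with a median of 0.36 over the 6 beside 0.03 for all. Arrays of Os+bgcn lay wholly above those of bgcn for the same 2 of 6, where 7.81% of all probe sets did so. Against wild type the arrays of each of the 5 genes, on the brightest probe set, lay wholly higher in bgcn (35.3% of all probe sets) and in Os+bgcn (37.9%). The contrasts share arrays, so their agreement is not independent.

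The scale of the comparison with wild type matters. Per array the authors' scaling set a common trimmed mean. On it the 24 ribosomal protein genes tested were themselves higher in bgcn than in wild type, 24 of 24, beside 47.2% of all probe sets. Their median was 2.03. In Os+bgcn 22 of the 24 were higher than in wild type, beside 47.3% of all probe sets, with a median of 1.62. Between the mutants 2 of 24 fell by limma, near the 8.91% of all probe sets, and none rose, beside 11.6%. The median there was -0.41. Quantile normalization and array median centring moved the median of all tested probe sets in bgcn against wild type to 0.32 and 0.23, and in Os+bgcn against wild type to 0.27 and 0.20. Setting each array to the median of the ribosomal protein genes moved the median of all tested probe sets to -1.61 in bgcn against wild type and to -1.37 in Os+bgcn against wild type. It moved to 0.30 between the mutants. On that scale 3.10% of the calls in bgcn against wild type were higher, against 67.6% on the authors' scale. In Os+bgcn against wild type it was 8.74% against 66.1%, and between the mutants 75.5% against 56.6%.

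Relative to the ribosomal protein genes the members split. In bgcn against wild type, mod (2.00), Nop56 (1.37 ± 0.29, adjusted p = 2.8e-05) and Nnp-1 (1.24 ± 0.32, adjusted p = 0.00059) were higher still, and wcd was at 0.62 ± 0.34 (adjusted p = 0.091). Fib was at -0.24 (adjusted p = 0.42), Nop60B, not tested here, at -0.52, and Tif-IA at -1.22 (adjusted p = 0.00035) was lower. In Os+bgcn against wild type Nop56, Nnp-1, wcd and Fib were higher (2.06, 1.95, 1.18 and 0.78, adjusted p up to 0.0066), Nop60B was at -0.07 and Tif-IA was lower at -1.06 (adjusted p = 0.0011). Quantile normalization and centring on the array median kept the sign and the call of every member tested against wild type on its brightest probe set. The higher values of Fib, Nop60B and Tif-IA over wild type are therefore higher on the authors' scale and not relative to ribosomal protein genes, except for Fib in Os+bgcn.

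**Figure D3:**
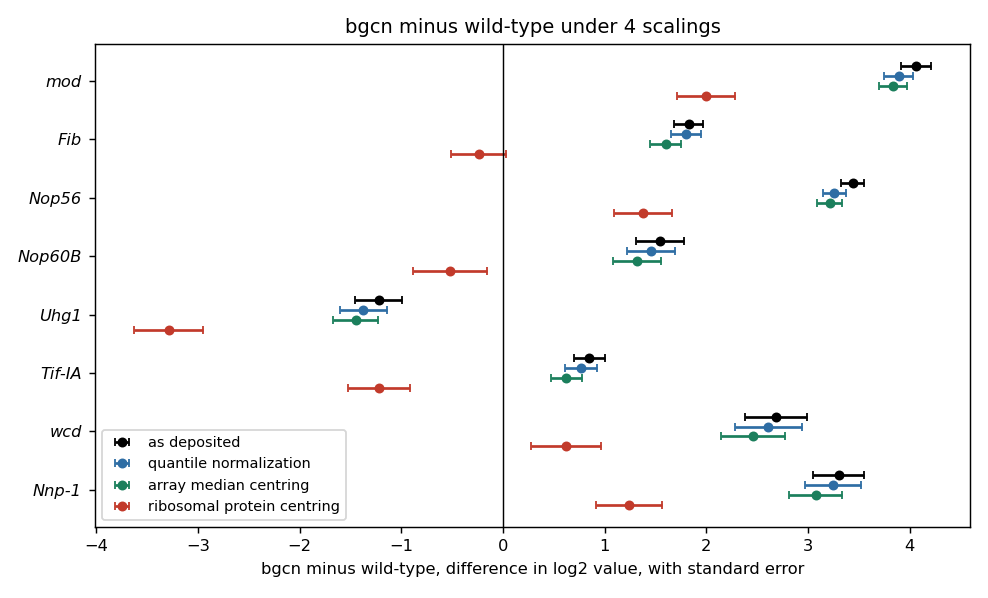
The bgcn minus wild-type difference in log2 value (horizontal axis) of 8 genes under the authors' scaling, quantile normalization, centring on the array median and centring on 24 ribosomal protein genes. Points are fitted differences and bars standard errors. The first 3 lie close together, and with ribosomal protein centring Fib, Nop60B and Tif-IA lie below 0 while mod, Nop56, wcd and Nnp-1 stay above it.

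Further genes of the pathway were taken from lists of 70 names besides the members, chosen from textbook knowledge with earlier results of these data known. Of these 57 were measured, and all 57 passed the filter. In bgcn against wild type 53 of 57 rose (47.2% of all probe sets were called higher), 1 fell (22.6% were called lower) and 3 did not pass, with a median of 1.81 beside 0.46 for all probe sets. In Os+bgcn against wild type 55 rose (47.3% of all probe sets), none fell by limma (24.2%) and 2 did not pass, with a median of 2.20 beside 0.43. At an unadjusted p under 0.05 1 gene was lower there. On all 5 wild-type arrays 19 of the 57 genes were under the filter value and so passed only through the mutants. Without them 34 of 38 rose and 1 fell in bgcn, with a median of 1.76, and 36 of 38 rose in Os+bgcn, with a median of 2.10. The order Os+bgcn over bgcn over wild type held for the means of 48 of the 57 genes. The share of all probe sets in that order is not given here. Between Os+bgcn and bgcn 43 of the 57 did not pass, so the upper step of the order is mostly untold by the fit. With ribosomal protein centring 9 were higher and 17 lower in bgcn against wild type, and 16 and 10 in Os+bgcn against wild type. Of the 57, 35 and 15 turned sign. Over all tested probe sets 3.10% and 8.74% of the calls on that scale were higher, with medians of -1.61 and -1.37.

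All 5 further snoRNP genes rose in both mutants, where 47.2% of all probe sets were called higher in bgcn and 47.3% in Os+bgcn. Nufip was under the filter value on all wild-type arrays and passed the filter only through the mutants, so its rise is no test. Nopp140, a nucleolar phosphoprotein that in vertebrates binds both kinds of snoRNP, had a signal of 1355 ± 107 in Os+bgcn, 1232 ± 246 in bgcn and 53.9 ± 12.9 in wild type, a rise of 4.10 ± 0.15 in bgcn over wild type (adjusted p = 3.1e-15). NHP2, of the H/ACA particle, rose by 3.28 ± 0.15 in bgcn over wild type (adjusted p = 8.7e-14), and Os+bgcn minus bgcn was -0.03 (adjusted p = 0.92). Of 7 further RNA polymerase I genes all rose in both mutants, beside the same shares of all probe sets. Polr1B, Polr1F and TAF1B passed the filter only through the mutants, so their part of this count is no test. Polr1A, the largest subunit, rose by 2.66 ± 0.16 in bgcn over wild type (adjusted p = 1.5e-11) and for Polr1B, the other large catalytic subunit and under the filter value in wild type, the difference was 2.43 ± 0.22. With ribosomal protein centring 2 of the 5 snoRNP genes were called higher in bgcn against wild type, Nopp140 (2.04, adjusted p = 2.0e-08) and NHP2 (1.22, adjusted p = 0.00027), and Nufip turned below 0. Of the 7 polymerase genes none was called higher there and 2 were called lower, Polr1C (-1.62, adjusted p = 2.2e-06) and Polr1H (-1.26, adjusted p = 0.00044), and 4 turned below 0. Over all tested probe sets 3.10% of the calls in that contrast and scale were higher, with a median of -1.61.

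All 17 further small subunit genes rose in both mutants, where 47.2% of all probe sets were called higher in bgcn and 47.3% in Os+bgcn. Some of the 17, with Mat89Ba, RIOK1, RIOK2, dbe, kz and CG4866 among them, passed the filter only through the mutants. The part of such genes in this count is no test. dbe (dribble, the relative of yeast KRR1), under the filter value in wild type, differed by 2.97 ± 0.18 in bgcn from wild type, and bys (bystin) rose by 2.69 ± 0.22 (adjusted p = 1.1e-09). With ribosomal protein centring 1 of the 17 was called higher and 6 lower in bgcn. Of 20 large subunit genes 18 rose in each mutant, beside the same shares of all probe sets. Among these ppan, pit, Surf6, CG4364, Noc2, Ns1 and vito passed the filter only through the mutants. With ribosomal protein centring 6 of the 20 were called higher and 5 lower in bgcn. Beside the counts of both lists on that scale, 3.10% of the calls over all tested probe sets were higher. Their median was -1.61. RpLP0-like, an assembly factor that resembles the stalk protein, had a signal of 1028 ± 92.2 in Os+bgcn, 902 ± 146 in bgcn and 48.0 ± 12.5 in wild type, a rise of 3.79 ± 0.15 in bgcn (adjusted p = 1.0e-14). CG4364, the fly counterpart of vertebrate pescadillo, differed by 3.32 ± 0.19 in bgcn from wild type, with wild-type signals of 3.3 to 6.5 that lie under the filter value. Sbds, which acts at the last, cytoplasmic step of large subunit maturation, was the 1 gene that fell, to 259 ± 56.5 in bgcn, against 396 ± 26.2 in wild type (-0.60 ± 0.15, adjusted p = 0.0013). In Os+bgcn against wild type Sbds was at -0.30 ± 0.14 (adjusted p = 0.066).

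Of 6 measured genes of the Myc network, 4 rose in bgcn and 6 in Os+bgcn over wild type. Of all probe sets 47.2% and 47.3% were called higher in these contrasts. The medians of the 6 genes were 0.53 and 1.09, beside 0.46 and 0.43 for all probe sets. Mondo and bigmax, which form a sugar-responsive pair of transcription factors, rose by 1.48 ± 0.23 and 2.02 ± 0.22 in bgcn over wild type (adjusted p = 8.8e-06 and 7.7e-08). Max, the partner of Myc, rose by 0.52 ± 0.18 (adjusted p = 0.015), and Mnt, its repressing partner, was at 0.49 ± 0.24 (adjusted p = 0.080). With ribosomal protein centring all 6 turned below 0 in bgcn against wild type, and 4 were called lower: pont (-1.95, adjusted p = 7.9e-09), Mnt (-1.57, adjusted p = 2.5e-05), Max (-1.54, adjusted p = 3.9e-05) and rept (-1.52, adjusted p = 3.5e-06). The nucleoplasmin-family histone chaperones Nlp and Nph rose by 2.43 ± 0.12 and 2.27 ± 0.15 in bgcn over wild type (adjusted p = 6.9e-13 and 4.5e-11). With ribosomal protein centring they were at 0.36 and 0.21 there and did not pass (adjusted p = 0.22 and 0.50).

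Between Os+bgcn and bgcn 14 of the 57 genes rose, 24.6% beside 11.6% of all probe sets, and none fell by limma, also at an unadjusted p under 0.05, where 8.91% of all probe sets were called lower. The median was 0.34 beside 0.03. The largest were Nufip, a snoRNP assembly factor, at 0.82 ± 0.24 (adjusted p = 0.019), l(1)G0020, the relative of the human acetyltransferase NAT10, at 0.73 ± 0.24 (adjusted p = 0.037), and Polr1B at 0.70 ± 0.21 (adjusted p = 0.026). Gar1, of the H/ACA particle, rose by 0.70 ± 0.18 (adjusted p = 0.0096), the helicase gene pit (pitchoune) by 0.68 ± 0.18 (adjusted p = 0.012), nclb, the relative of yeast PWP1, by 0.65 ± 0.14 (adjusted p = 0.0027) and mbm, a nucleolar protein gene of neuroblasts, by 0.56 ± 0.15 (adjusted p = 0.012). rept and pont, AAA-type ATPases that help assemble snoRNPs and also serve chromatin complexes, rose by 0.70 ± 0.14 (adjusted p = 0.0013) and 0.35 ± 0.11 (adjusted p = 0.027).

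These calls moved with single arrays and settings. Of the 57 genes 9 rose without bgcn array 2, 7 without bgcn arrays 1 and 2, 8 with a pseudocount of 1 and 8 with ribosomal protein centring. Calls over all probe sets fell under each of these settings as well, so the drop was not confined to these genes. Changed probe sets fell from 2141 to 1700 without bgcn array 2 and to 1247 with ribosomal protein centring. Of all calls 54.2%, 53.6%, 53.0% and 75.5% were higher, in the order of the settings above, against 56.6% before. rept and nclb passed under all 27 alternatives, Gar1 and mbm under 26, Nufip under 24, pit under 25, Polr1B and pont under 21 and l(1)G0020 under 17. The 27 include fits without 1 wild-type array, which leave the difference between the mutants unchanged and move only its error. Among the marker lists 3 of 5 early germline genes tested rose between the mutants, with a median of 0.64. Of 6 hub and cyst genes 4 rose and 2 fell. The accessory gland genes fell, 12 of 12 with a median of -2.48, as did 5 of 7 hemocyte and 4 of 5 muscle sheath genes. Of 14 spermatid and 6 spermatocyte genes 1 each rose. Of all probe sets 11.6% were called higher and 8.91% lower. The part of these markers in the calls was not tested. Where a listed gene had another tested probe set, it could disagree: eIF6 rose by 0.82 in bgcn and by 1.29 in Os+bgcn over wild type on the brighter one, and stood at 0.10 and 0.04 on the other (adjusted p = 0.74 and 0.91). Non1 was at 0.62 in Os+bgcn minus bgcn on the brighter and at -0.32 on the other (adjusted p = 0.58).

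**Figure D4:**
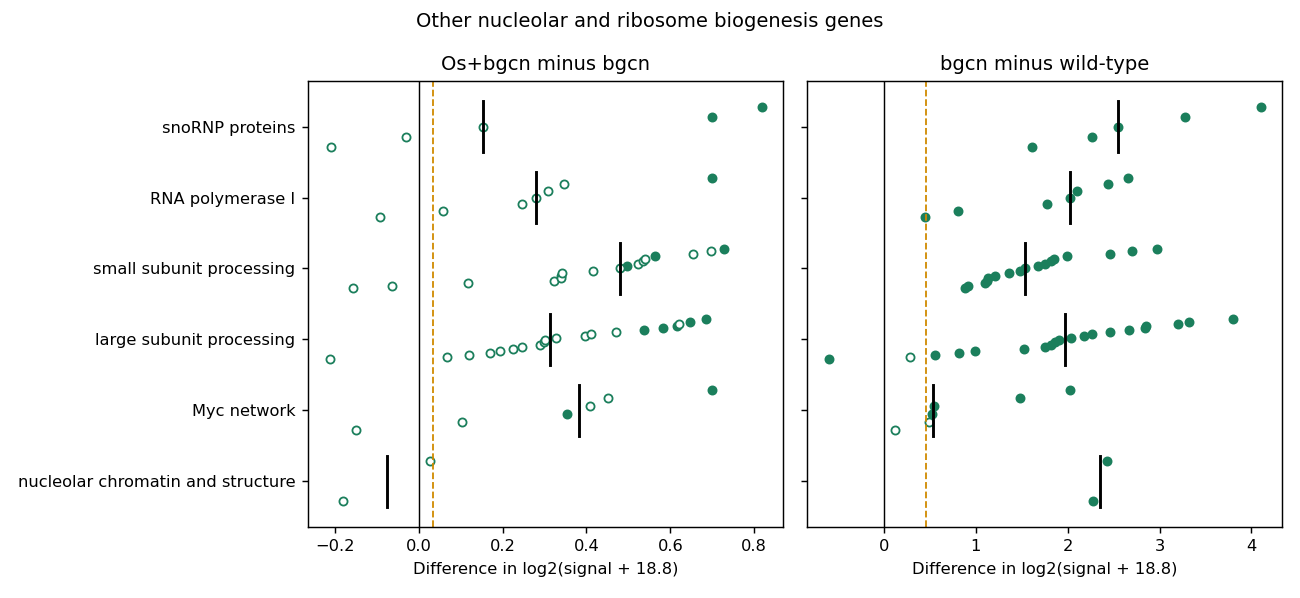
Differences in log2(signal + 18.8) of 57 further genes in 6 lists, for Os+bgcn minus bgcn (left) and bgcn minus wild-type (right), on axes of different range. Filled points passed an adjusted p of 0.05, open points did not, black bars are list medians and the dashed line is the median of all tested probe sets. Most points lie right of the dashed line in both panels; with ribosomal protein centring 35 of the 57 turn sign in bgcn minus wild-type and 8 in Os+bgcn minus bgcn, with median centring pont on the right and with quantile normalization NHP2 on the left.

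Other genes that carry snoRNA genes within their span were counted, from a list made from the RefSeq gene table after the values of Uhg1 were seen; the table gives no strand, so a host and an overlapping neighbour are not told apart. Without ribosomal protein genes and the members, 49 such genes were tested. In bgcn against wild type 33 rose, 6 fell and 10 did not pass, with a median of 1.09, where 47.2% of all probe sets were called higher and 22.6% lower. In Os+bgcn against bgcn 11 rose, 2 fell and 36 did not pass, with a median of 0.27, where 11.6% were called higher and 8.91% lower. Since Uhg1 was chosen for its values and the list was made after them, no comparison is drawn between Uhg1 and these genes.

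The genes whose centred log2 values lay nearest to those of mod over all 16 arrays, by Euclidean distance, were Fkbp39 (distance 1.27), Kots (1.33) and vas (1.35). The ranking covered 5135 tested genes and left out those with only a CG or CR number or an antisense RNA symbol. Fkbp39, a peptidyl-prolyl isomerase, had mean signals of 2094 in Os+bgcn, 1391 in bgcn and 96.8 in wild type. vas, the germ cell helicase Vasa, had 1230, 776 and 48.9, and Kots 1587, 876 and 31.1. For Uhg1 the nearest were esg (2.82), a Snail-family repressor of hub and cyst stem cells, upd1 (2.86), which the Os genotype itself names, and ImpL2 (3.13), whose secreted product binds and inhibits insulin-like peptides. esg had mean signals of 836 in Os+bgcn, 24.7 in bgcn and 32.9 in wild type, and ImpL2 1205, 156 and 110. The 3 neighbours of Uhg1 lay farther off than those of mod, and for esg and upd1 bgcn and wild type stood close together where Uhg1 was lower in bgcn.

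**Figure D5:**
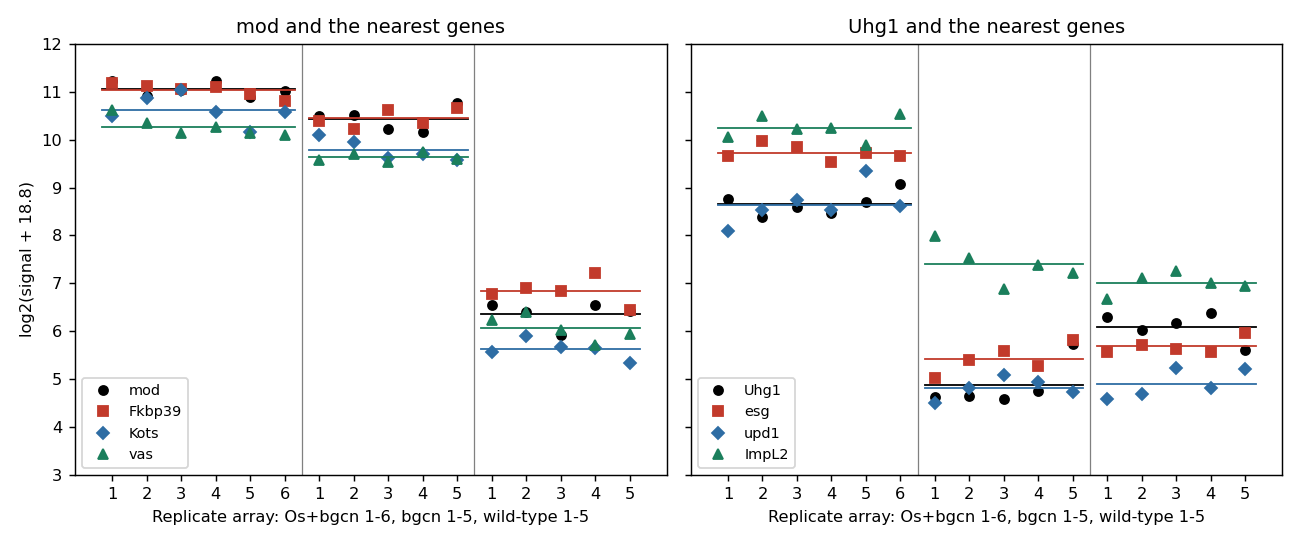
Values of log2(signal + 18.8) on each of 16 arrays (horizontal axis, replicate arrays within Os+bgcn, bgcn and wild-type) for mod with its 3 nearest genes (left) and Uhg1 with its 3 nearest genes (right). Points are arrays and short lines group means. The mod panel falls into 2 high mutant groups and a low wild-type group, and the Uhg1 panel into high Os+bgcn and low bgcn and wild-type arrays.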

How the data were processed

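RNA of 16 pools of whole testes, about 5 µg each, was hybridised to single-colour arrays. What the authors deposited is 1 linear signal intensity per probe set, from MAS5 per the submitters' processing notes, whose version the sources used here do not give. The arrays have a common trimmed mean (148 to 149 with 2% trimmed at each end), so the signal is relative within an array, and dim signals carry the most error. Groups came from the sample titles. No array repeated another, and correlations within groups were 0.870 to 0.960.

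Signals were taken as log2(signal + 18.8). The filter kept probe sets that exceeded 42.9, the 40th percentile of all values, on 5 or more arrays (10422 of 13966). limma 3.58.1 in R 4.3.3 fitted 1 coefficient per group to all 16 arrays, with an intensity trend, with Benjamini-Hochberg adjustment across the 10422 probe sets. Errors are standard errors for differences and standard deviations for signals. Of the probe sets 12443 carry 1 symbol, 327 several and 1196 none; symbols were updated through RefSeq gene identifiers (12394 matched), and a gene outside the rule is represented by its probe set with the highest mean. The fit was tested on simulated data. Members and lists were chosen with earlier results of these data known. Named were every member, upd1 and bgcn, from each list and contrast up to 2 genes per direction with the largest passing difference, and the 3 nearest genes of mod and Uhg1. eIF6, Non1, Max and Mnt were named after their values were seen. Python 3.11.15, pandas 2.3.3 and matplotlib 3.10.9 were used for tables and figures. Alternatives covered the pseudocount, filter, scaling, variance trend, arrays used, replicate number and probe set.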

Additional observations from a re-analysis of the deposited data

Results flagged for a closer look

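Among 30 groups of arrays checked, 1 per probe set and genotype, 4 held an array far from the others by Dixon's criterion, which chance alone flags in about 1 of 20 groups. In bgcn array 5 Uhg1 had a signal of 34.0, against 5.3 to 8.2 on the other bgcn arrays. Its difference between Os+bgcn and bgcn was 4.01 without that array and 3.79 with it. In bgcn array 1 Nop60B had 98.3, against 63.1 to 72.9 on the others, and the brightest Tif-IA probe set had 490.4, against 307.5 to 342.9. That array also had the highest summed accessory gland signal of all (18005), whose part in these values was not tested. In wild-type array 3 mod had 41.9, against 66.0 to 74.6 on the others.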

How the results depend on the processing

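Over 27 alternatives, every call of Fib, Nop56, Tif-IA, wcd and Nnp-1 against wild type held on the brightest probe set, except with ribosomal protein centring. There Fib was -0.24 and Nop60B -0.52 in bgcn, Nop60B -0.074 in Os+bgcn, and the 3 Tif-IA probe sets were -1.22, -1.34 and -1.60 in bgcn and -1.06, -0.60 and -1.29 in Os+bgcn, while wcd in bgcn, and Nop56 between the mutants, did not pass. A stricter filter left out Nop60B. That scaling subtracts genes that were themselves higher in the mutants. It gave 1247 changed probe sets between the mutants (2141 on the authors' scale), where 8 of the 57 further genes were higher. In bgcn against wild type 9 were higher and 17 lower, and in Os+bgcn against wild type 16 and 10. Of all calls on that scale 75.5%, 3.10% and 8.74% were higher in these contrasts, in that order. Between the mutants 8 of the 57 rose with a pseudocount of 1 and 7 without bgcn arrays 1 and 2 (14 before these changes). Under both settings fewer probe sets changed in all than the 2141 above. The cause was not tested. In Os+bgcn against wild type 1 of the 57, against 0, was lower with median centring, in the fit of only the groups compared and without bgcn arrays 1 and 2. Leaving out 1 array at a time gave 1700 to 2130 changed probe sets between the mutants, with 9 to 16 of the 57 higher and 0 to 0 lower. It gave 7056 to 7318 in bgcn against wild type, with 53 to 54 higher and 1 to 1 lower, and 7258 to 7569 in Os+bgcn against wild type, with 54 to 55 higher and 0 to 1 lower. Tif-IA between the mutants, at -0.11, had no settled sign: 0.16 with ribosomal protein centring, -0.17 to 0.00057 leaving out arrays, and 0.47 and 0.037 on its other probe sets. The last of these gave -0.0038 with quantile normalization, -0.051 without bgcn arrays 1 and 2 and -0.10 to 0.21 leaving out arrays.

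No pairing of arrays by replicate number was seen. Deviations of same-numbered arrays of different groups had correlations of -0.107 to 0.201, over 0.1 in 1 of 15 pairs. These values cannot tell whether same-numbered arrays were handled together. With the replicate number as a block 1749, 7251 and 7308 probe sets changed, 11 of the 57 genes rose between the mutants, and that Tif-IA probe set was at -0.049. Array number and the dim signals of Uhg1 in bgcn and of Nop60B and wcd in wild type limit the precision of their differences.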
